A study of Bombus terrestris with 25 samples.

Results

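The pre-mRNA splicing genes described here were the 28 genes of the deposited table, out of 3861, whose product name held the word splicing, spliceosome, pre-mRNA, nuclear ribonucleoprotein or intron-binding, leaving out the gene LOC100643134. The rule uses no measured value. PolyA RNA had been sequenced from individual queens of a bumble bee, Bombus terrestris. Each library came from the abdomen of 1 queen, cleared of its viscera but with the fat body still attached. There were 25 libraries in 5 groups of 5. All queens, of every group, had been mated in the laboratory with unrelated males at 5 to 10 days of age, and were reared in the dark. The founders after diapause (label Founder post diapause) were egg-laying colony founders of 4 months, taken about a month after a cold period, from which they had been brought to room temperature and daylight. The diapausing queens (label Diapause) were taken at the end of 9 to 10 weeks at 4 C, which had begun on the day of mating. Their age was 3 months in the sample labels and 2.5 months in the series text. The founders after CO2 (label Founder post CO2) were egg-laying colony founders of 1.5 months that had been anaesthetised with pure CO2 for about 1 minute, and again 24 h later, with no cold. The CO2-treated queens (label CO2-treated) had the same anaesthesia and were taken 24 h after it. The mated queens (label Mated) had neither cold nor CO2. Both of these last groups were 5 to 10 days old. Each group had 1 queen from each of 5 genetic lines, with another line in place of the fifth among the mated queens. Age, temperature and feeding differ between most groups together with the treatment, and these cannot be told apart.

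Introns are removed from nuclear transcripts by the spliceosome, a machine built anew on each intron from small nuclear ribonucleoprotein particles (snRNPs). A ring of Sm proteins sits on the RNA of most of these particles, U1 and U2 mark the start of the intron and its branch point, and the U4/U6.U5 particle then joins and is remodelled by RNA helicases into the catalytic form. SR proteins and heterogeneous nuclear ribonucleoproteins (hnRNPs) bind the transcript and steer which sites are used. The introns of some tRNAs are removed by other enzymes, an endonuclease and a ligase.

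By their product names, 5 of the 28 genes were Sm proteins, 8 belonged to the U1 and U2 snRNPs and splicing factor 3, and 3 to the U4/U6.U5 snRNP. A further 5 act in activation, catalysis or release of the spliceosome, 2 were SR proteins and 2 were hnRNPs. The last 3, the endonuclease subunits Sen2 and Sen34 and the ligase RtcB, were caught by the word splicing but act on tRNA, so the set as chosen is wider than pre-mRNA splicing. The rule names only part of the known spliceosome, and genes of it with other names are not in the set. Together the 28 genes had 163 of the 22679 counted exon-sized intervals, between 1 and 29 each with a median of 4. A total of 27 passed the filter on low counts and were tested, out of 3793 tested genes. The SR-rich factor LOC100650644, covered by an interval of 45 bp, had 12 reads over all libraries and was not tested.

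Levels are given as CPM, read counts of the table brought to a common library size with edgeR's TMM factors. The library totals ran from 534806 to 4057781 reads. CO2-treated replicate 3 and mated replicate 2 (586405) were far shallower than the other 23, which had at least 2432559. These 2 libraries, from different groups and genetic lines, were also more like each other than any other pair, where a chi-square statistic over genes, divided by its degrees of freedom, was 2.37 for this pair and 5.51 or more for the rest. Diapause replicate 1 stood apart from the other diapausing queens for many of the genes below. By the same statistic it was closest to 4 of the CO2-treated queens, at 10.2 to 18.5, and lay at 39.9 to 67.9 from the other diapausing queens, so each value for the diapausing queens holds 1 library that was less like its own group than like another. The balance between short and long genes also differed between libraries. It is given as the slope of log2 CPM, less the gene's mean over libraries, per doubling of covered length. This slope was -0.63 to -0.14 in founders after diapause, 0.02 to 0.43 in diapausing queens, -0.64 to 0.03 in founders after CO2, 0.04 to 0.28 in CO2-treated queens and 0.01 to 0.28 in mated queens. Founders after CO2 replicates 1 and 3 had -0.64 and -0.51, and the other founders after CO2 -0.03 to 0.03. Each gene is therefore also set beside the 200 other tested genes nearest to it in covered length.

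The tissue label was compared with marker genes, none of which was at 0 in all libraries. The 3 fat body markers summed to 106 to 475 CPM in founders after diapause, 3402 to 10324 CPM in diapausing queens, 59.1 to 1108 CPM in founders after CO2, 229.6 to 19003 CPM in CO2-treated queens and 213 to 46181 CPM in mated queens. The 5 muscle markers reached 21594 CPM, so muscle RNA was present beside that of the fat body. The abdomens had been cleared of viscera, but gut and ovary markers were present as well. The 20 gut markers summed to 4132 to 45383 CPM in founders after diapause and 1204 to 5464 CPM in diapausing queens. These sums were 2801 to 10457 CPM in founders after CO2 and 1999.8 to 18815 CPM in CO2-treated queens. In mated queens they were 1250 to 4238 CPM. The 4 ovary markers reached 6135 CPM, in a founder after CO2. Between founders after diapause and diapausing queens, 12 of 20 gut markers were higher and 1 lower, 3 of 4 ovary markers higher and 1 lower, and 1 of 5 muscle markers higher and 2 lower. Of the 4 tested neuron markers 3 were lower, as were 2 of 4 hemocyte and 2 of 3 fat body markers, with none higher. The share of all tested genes called was 40.2% higher and 40.6% lower. Between founders after CO2 and CO2-treated queens, 3 gut and 3 ovary markers were higher and none lower, 1 fat body marker was higher and 1 lower, and all 4 tested neuron, 2 muscle and 1 hemocyte marker were lower and none higher. Here the share of all tested genes was 14.8% higher and 13.6% lower. The part of these cell types in the changes below was not tested. In whole tissue, fewer cells of a type and less RNA per cell cannot be told apart.

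Per length, as RPKM (CPM per kilobase of covered length) averaged over the 25 libraries, the SR protein SRSF2 (LOC100644191) had the highest level at 156 RPKM. The tRNA endonuclease subunit Sen2 (LOC100644121) followed at 91.0 RPKM, then the A-prime protein of the U2 snRNP (LOC100647634) at 84.0 RPKM and Sm E (LOC100644068) at 80.7 RPKM. Prp31 (LOC100649720), which holds U4/U6 to U5, was the lowest of the tested genes at 5.60 RPKM. All 28 genes together summed to 3606 to 5132 CPM in founders after diapause, 4769 to 5876 CPM in diapausing queens, 4231 to 5317 CPM in founders after CO2, 4594 to 5149.6 CPM in CO2-treated queens and 4437 to 5563 CPM in mated queens. Apart from the highest founder after diapause, the founders after diapause were below every library of the other groups.

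Over the 5 groups at once, 25 of the 27 tested genes differed (edgeR's quasi-likelihood F test, adjusted p under 0.05), where 79% of all tested genes did. The exceptions were SRSF2 (adjusted p = 0.112) and PRP19 (LOC100652153), a ubiquitin ligase of the activated spliceosome (adjusted p = 0.0558). With the genetic line as a block 20 differed, where 76.7% of all tested genes did. In that fit PRP19 was called (edgeR adjusted p = 0.0281), and SF3A1, SF3B4, the U2 A-prime protein, PRP8, hnRNP K and 38B were not (edgeR adjusted p of 0.0516 to 0.0776). Group means of SRSF2 spanned 0.57 on the log2 scale, those of 38B (LOC100649285), a pre-mRNA-splicing factor, 0.74, those of the U2 A-prime protein 1.01 and those of PRP19 1.05, the 4 narrowest spans. Narrowest within the set does not mean constant, as the means of the U2 A-prime protein and PRP19 spanned 2.01-fold and 2.07-fold. With the length trend of each library removed, SRSF2 and PRP19 differed over the groups (edgeR adjusted p = 0.000912 and 0.00552). In that setting 38B and the U2 A-prime protein did not (edgeR adjusted p = 0.857 and 0.181). The highest group mean lay in diapausing queens for 12 genes and in founders after diapause for 8. The lowest lay in founders after diapause for 16 genes, in mated queens for 7 and in diapausing queens for 4. No count of extremes over all tested genes is given here, so these numbers are not read as a trait of the splicing genes. Between diapausing queens and the founders that followed them, 80.9% of all tested genes were called.

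**Figure D1:**
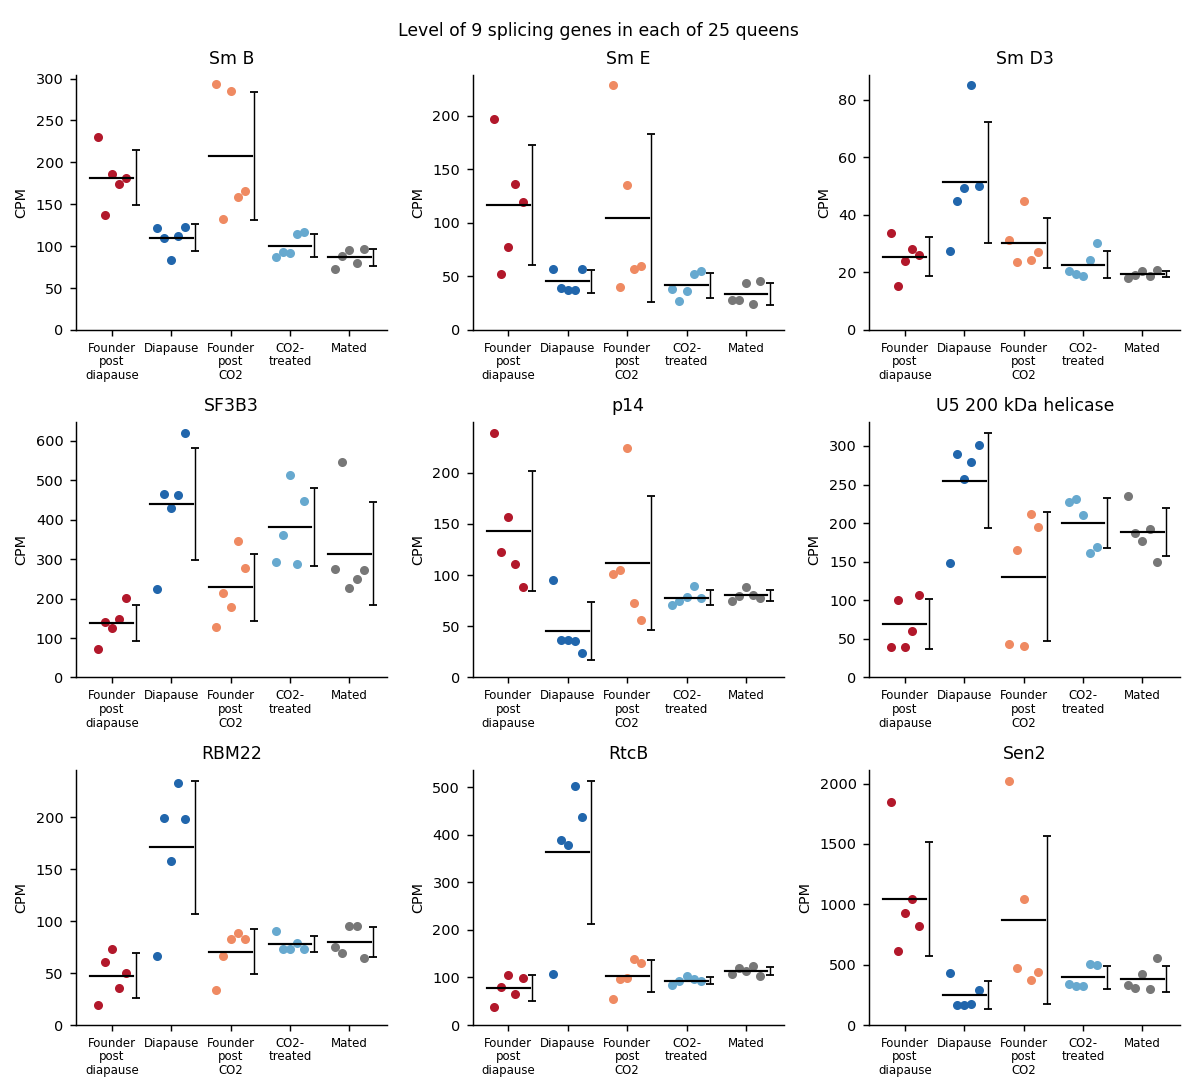
CPM of 9 splicing genes in each of the 25 queens, by group. Points are queens, the line is the group mean and the bar its SD (n = 5). RtcB, RBM22 and Sm D3 stand highest in diapausing queens, whose replicate 1 is their lowest point, while Sm B stands highest in both founder groups. Sen2 stands high in founders after diapause, and in founders after CO2 through replicates 1 and 3.

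The largest number of called splicing genes was in founders after diapause over diapausing queens. Of the 27 tested genes, 17 fell and 9 rose in founders after diapause, at a background of 80.9% of all tested genes called, 40.2% higher and 40.6% lower. With library totals in place of TMM factors 17 fell and 5 rose, at a background of 72.2%, 31.4% higher and 40.8% lower. A change as such was therefore the common state of genes in this comparison. The median log2 fold change of the 27 genes was -1.11, against 0.28 over all tested genes. The values of the groups did not overlap for 18 of the genes, 14 lower and 4 higher, where 48.7% of all tested genes did not overlap, 19.2% higher and 29.5% lower.

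Members of the U1 and U2 snRNPs and splicing factor 3 made up the largest group that fell, with 6 of 8 lower and 1 higher. SF3B3 (LOC100645726), a subunit of the SF3B complex that grips the branch point, had 72.8, 140.4, 126, 149 and 200.2 CPM in founders after diapause, against 224, 464, 429.5, 462 and 619.7 CPM in diapausing queens. Every founder was below every diapausing queen. The log2 fold change was -1.67 ± 0.34 (edgeR adjusted p = 0.000187). The median of genes of like length, -1.62, was close to it, and with the length trend of each library removed the change was -0.64 (edgeR adjusted p = 0.0287). SF3B1 (LOC100650395), the largest subunit of that complex, had 39.5, 202, 93.9, 129.997 and 217 CPM in founders after diapause, against 522, 391, 418, 469 and 381 CPM in diapausing queens. Its log2 fold change of -1.68 ± 0.43 (edgeR adjusted p = 0.00158) was again near the -1.67 of genes of like length.

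The other genes of this group that fell were shorter, and the median change of genes of their length was above 0. Splicing factor 1 (LOC100647113), which binds the branch point first, had 33.8, 111, 134, 82.6 and 107 CPM in founders after diapause, against 154, 318, 318, 361 and 293 CPM in diapausing queens. Its log2 fold change was -1.62 ± 0.36 (edgeR adjusted p = 0.000495), where genes of like length had a median of 0.52. No founder reached the lowest diapausing queen. SF3B4 (LOC100645924) and SF3A1 (LOC100642363), subunits of the SF3B and SF3A complexes, changed by -1.77 ± 0.49 and -1.11 ± 0.32 on the log2 scale (edgeR adjusted p = 0.00261 and 0.00313), both apart from the diapausing queens in every founder.

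The branch site protein p14 (LOC100644298), which lies on the branch point adenosine within SF3B, went the other way. It had 238, 123, 157, 111 and 87.9 CPM in founders after diapause, against 94.7, 36.1, 36.4, 35.3 and 24.2 CPM in diapausing queens. Diapause replicate 1 alone reached into the range of the founders. It changed by 1.66 ± 0.36 on the log2 scale (edgeR adjusted p = 0.000418), or 2.13 (edgeR adjusted p = 8.41e-06) without that library, and the like-length median was 0.70. The U2 A-prime protein had 268, 95.4, 107, 209 and 159 CPM in founders after diapause, against 90.0, 99.3, 105, 126 and 139 CPM in diapausing queens. Those groups overlapped, and its log2 fold change of 0.58 ± 0.34 did not pass the test (edgeR adjusted p = 0.118).

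All 3 genes of the U4/U6.U5 snRNP fell. The U5 200 kDa helicase (LOC100644952), which unwinds U4 from U6, had 39.9, 99.9, 39.8, 60.7 and 106 CPM in founders after diapause, against 149, 290.0, 257, 279 and 301 CPM in diapausing queens. Prp31 had 5.64, 2.55, 2.72, 3.57 and 2.77 CPM in founders after diapause, against 6.99, 41.0, 27.6, 15.1 and 18.0 CPM in diapausing queens. PRP8 (LOC100648362), the scaffold at the catalytic centre, had 25.4, 267, 112, 99.2 and 217 CPM in founders after diapause, against 525, 554, 550.0, 513 and 424 CPM in diapausing queens. For each of the 3 genes every founder was lower than every diapausing queen, and founder replicate 1 was the lowest or near the lowest for the helicase and PRP8. For Prp31 the gap was narrow, with 5.64 CPM in founder replicate 1 and 6.99 CPM in diapause replicate 1. Its counts were low, 720 reads over all libraries. The log2 fold changes were -1.88 ± 0.40 for the helicase, -2.66 ± 0.64 for Prp31 and -1.83 ± 0.59 for PRP8 (edgeR adjusted p = 0.00033, 0.00086 and 0.0078). The helicase and PRP8 are among the longest genes of the set, with 7566 and 7117 bp covered, and genes of their length had medians of -1.95 and -1.92. Neither was called with the length trend removed (edgeR adjusted p = 0.137 and 0.229). Prp31, with 2183 bp covered, lay above 7% of the 200 genes nearest to it in length, whose median was 0.70, and stayed called (edgeR adjusted p = 0.00073).

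Among the Sm proteins, 4 of 5 rose. Sm B (LOC100644325) had 231, 138, 186, 174 and 181 CPM in founders after diapause, against 122, 110.1, 83.7, 112 and 123 CPM in diapausing queens. Sm E had 196, 52.3, 77.6, 136 and 119 CPM in founders after diapause, against 56.8, 39.2, 36.8, 36.8 and 57.2 CPM in diapausing queens. Every founder exceeded every diapausing queen for Sm B, while for Sm E founder replicate 2 lay within the range of the diapausing queens. The log2 fold changes were 0.72 ± 0.24 for Sm B and 1.36 ± 0.41 for Sm E (edgeR adjusted p = 0.0079 and 0.00464). Sm G (LOC100643544) had 140.5, 46.6, 43.9, 118 and 70.1 CPM in founders after diapause, against 60.0, 29.5, 36.4, 26.4 and 47.2 CPM in diapausing queens. Sm D1 (LOC100643716) had 176, 58.4, 102, 67.04 and 56.6 CPM in founders after diapause, against 51.3, 54.9, 51.6, 63.2 and 50.6 CPM in diapausing queens. Both pairs of groups overlapped. Sm G changed by 1.07 ± 0.38 and Sm D1 by 0.76 ± 0.32 (edgeR adjusted p = 0.0141 and 0.0332), and both calls depended on single libraries. Sm G was not called without founder replicate 1 (edgeR adjusted p = 0.0801). Sm D1 was not called without diapause replicate 2, 3 or 5 or founder replicate 1 or 3, with an edgeR adjusted p of up to 0.303 and a log2 fold change down to 0.32. With the genetic line as a block, Sm D1 had an edgeR adjusted p of 0.0551, in a fit that called 79.8% of all tested genes. The covered lengths of Sm B, E, G and D1 are 802 to 2401 bp, and genes of like length had medians of 1.00 to 1.37. With the length trend removed only Sm B of these 4 stayed called (edgeR adjusted p = 0.0241), and the change of Sm D1 was -0.20 (edgeR adjusted p = 0.48).

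Sm D3 (LOC100647682) fell. It had 33.8, 15.3, 23.8, 28.3 and 26.1 CPM in founders after diapause, against 27.4, 44.8, 49.2, 85.3 and 50.0 CPM in diapausing queens. Diapause replicate 1 was within the range of the founders and the other diapausing queens were above it. On the log2 scale Sm D3 changed by -1.01 ± 0.29 (edgeR adjusted p = 0.00305), where genes of like length had a median of 1.14.

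**Figure D2:**
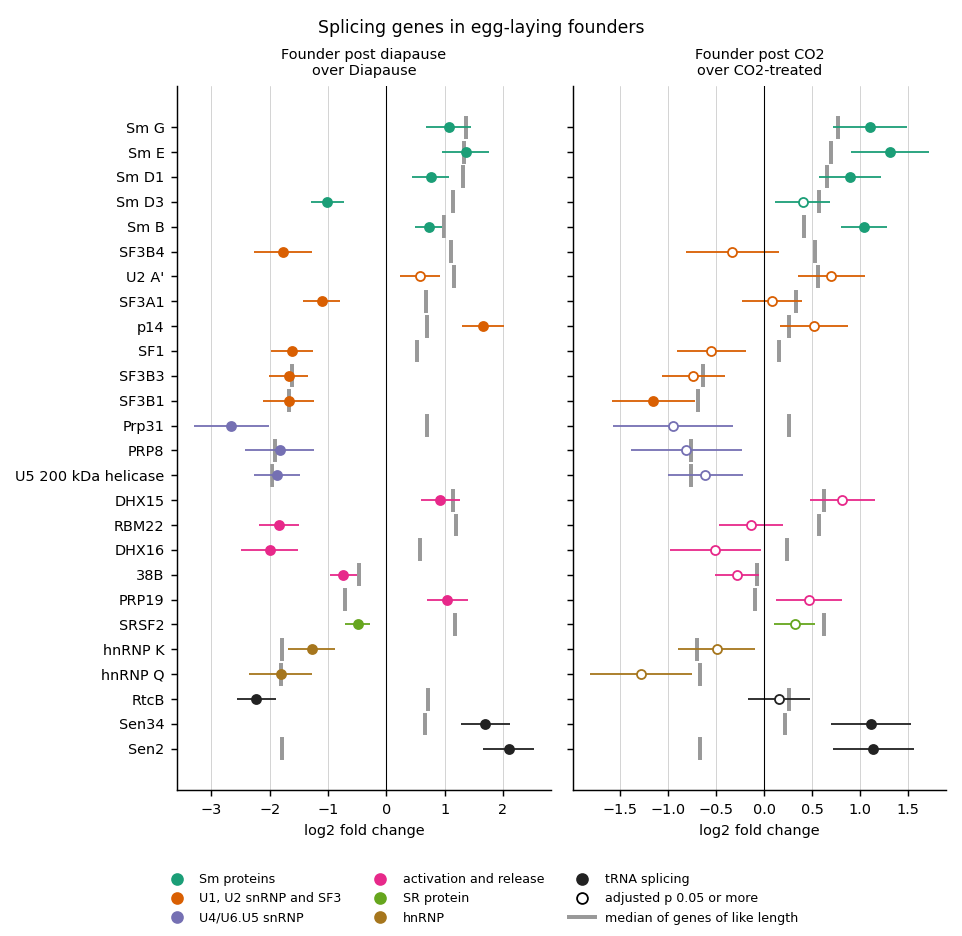
Log2 fold change with its SE for 26 of the 27 tested splicing genes, ordered by role, in founders after diapause over diapausing queens (left) and founders after CO2 over CO2-treated queens (right). Filled points passed an edgeR adjusted p of 0.05 and grey ticks are the median of the 200 genes of like length. On the left 25 points are filled and 16 of these are below 0, and on the right 7 are filled.

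Of the 5 genes that act in activation, catalysis and release, 3 fell and 2 rose. RBM22 (LOC100643706), which binds U6 RNA at the catalytic centre, had 18.8, 60.3, 73.5, 35.9 and 49.6 CPM in founders after diapause, against 66.4, 199, 158, 233 and 198 CPM in diapausing queens. Diapause replicate 1 lay within the range of the founders, and the other diapausing queens were above it. Its log2 fold change was -1.84 ± 0.34 (edgeR adjusted p = 8.77e-05), although genes of like length had a median of 1.196. DHX16 (LOC100643340), a helicase that acts just before the first cut, had 10.3, 21.4, 29.3, 15.8 and 18.6 CPM in founders after diapause, against 32.9, 86.8, 84.1, 107 and 72.1 CPM in diapausing queens. It changed by -2.001 ± 0.49 (edgeR adjusted p = 0.000966), and every founder was below every diapausing queen. The smaller change of 38B, -0.74 ± 0.23 (edgeR adjusted p = 0.00593), was not called with the length trend removed (edgeR adjusted p = 0.453).

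PRP19 and DHX15 (LOC100643219), the helicase that frees the spent intron, rose. PRP19 had 648, 329, 535, 457 and 387 CPM in founders after diapause, against 295.98, 186, 179, 171 and 309 CPM in diapausing queens. All founders were above all diapausing queens. On the log2 scale it changed by 1.05 ± 0.35 (edgeR adjusted p = 0.00882), while genes of its length had a median of -0.71. DHX15 changed by 0.92 ± 0.33 (edgeR adjusted p = 0.0152) and was not called with the length trend removed (edgeR adjusted p = 0.331).

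Both hnRNPs fell, as did the SR protein SRSF2. HnRNP Q (LOC100649993) had 41.8, 243, 108, 80.3 and 165 CPM in founders after diapause, against 540.4, 485, 446, 479 and 286 CPM in diapausing queens. HnRNP K (LOC100644810) had 64.4, 345, 276, 155 and 233 CPM in founders after diapause, against 571, 459.8, 470.4, 707 and 402 CPM in diapausing queens. No founder reached the lowest diapausing queen for either hnRNP. The log2 fold changes were -1.81 ± 0.54 and -1.28 ± 0.41 (edgeR adjusted p = 0.00449 and 0.00678), close to or smaller than the -1.80 of genes of like length for both, and neither was called with the length trend removed (edgeR adjusted p = 0.11 and 0.5). SRSF2 had 68.1, 70.2, 76.2, 45.6 and 61.6 CPM in founders after diapause, against 69.6, 91.0, 94.5, 98.8 and 98.5 CPM in diapausing queens. The ranges overlapped through diapause replicate 1. Its change of -0.49 ± 0.21 (edgeR adjusted p = 0.0373) was not called without diapause replicate 2, 3 or 4 or founder replicate 4 or 5, with an edgeR adjusted p of up to 0.108. Removing the length trend gave -1.42 (edgeR adjusted p = 9.61e-05).

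The 3 tRNA splicing genes moved apart from each other. Sen2, the subunit that cuts the upstream end of a tRNA intron in yeast, had 1843, 610.2, 924, 1041 and 819 CPM in founders after diapause, against 429, 168, 163, 172 and 292 CPM in diapausing queens. Its partner Sen34 (LOC100645709), which in yeast cuts the downstream end, had 707, 167, 267, 319.6 and 260.1 CPM in founders after diapause, against 133, 86.8, 78.9, 73.6 and 159 CPM in diapausing queens. RtcB (LOC100647213), the ligase that joins the cut ends in animals, had 38.1, 79.1, 106, 65.0 and 98.4 CPM in founders after diapause, against 108, 390.4, 378, 502 and 437 CPM in diapausing queens. The endonuclease subunits were higher in every founder than in every diapausing queen, and RtcB was lower in every founder. For RtcB the gap was narrow, with 108 CPM in diapause replicate 1 and 106 CPM in the highest founder. The log2 fold changes were 2.10 ± 0.43 for Sen2, 1.69 ± 0.42 for Sen34 and -2.23 ± 0.33 for RtcB (edgeR adjusted p = 0.000245, 0.0011 and 1.59e-05). Sen2, counted over a single interval of 6464 bp, lay above 97% of the 200 genes nearest to it in length, whose median was -1.79. RtcB lay above 10.5% of those of its own length, whose median was 0.72. In the coordinates of the deposited gene models, version 1.3 by their name, Sen2 was counted at 628390 to 634853 and RtcB at 3690301 to 3693053 of the same scaffold.

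**Figure D3:**
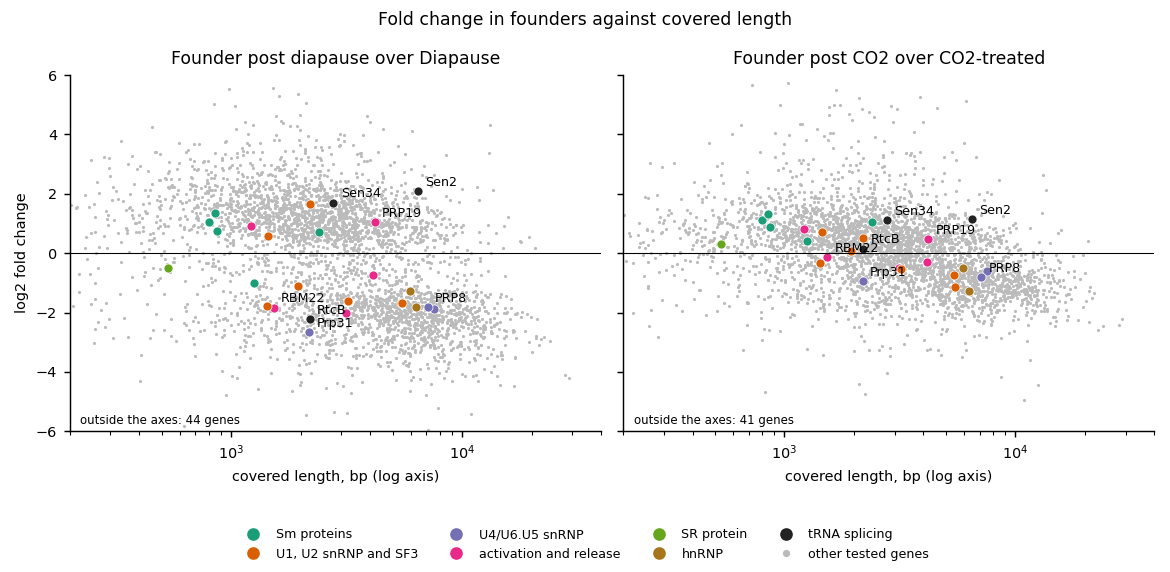
Log2 fold change against covered length in bp (log axis) for tested genes in grey and 26 splicing genes coloured by role, in founders after diapause over diapausing queens (left) and founders after CO2 over CO2-treated queens (right). Grey points slope downward with length on both sides, and the long genes of U4/U6.U5 lie among them while Sen2 lies above most of them. RtcB lies below most of them on the left only, and on the right it is at 0.15.

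The dependence on length bears on this comparison as a whole. Among genes of up to 1605 bp, 4 of 9 splicing genes rose and 4 fell, where 58.6% of the other genes rose and 17.7% fell. From there to 2906 bp, 3 of 6 rose and 3 fell, against 52.9% and 26.4% of the others. From 2906 to 5231 bp, 1 of 5 rose and 4 fell, against 36.6% and 42.1% of the others. Above 5231 bp, 1 of 7 rose and 6 fell, against 13.1% and 75.7% of the others. Against the median of its own 200 genes of like length, 8 splicing genes were higher and 19 lower, with a median difference of -0.27 and a range of -3.36 to 3.89 on the log2 scale. With the length trend of each library removed, 17 of the 27 genes were called, 5 higher and 12 lower, where 68.5% of all tested genes were, 36.6% higher and 31.9% lower.

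Founders after CO2 differed less from the queens taken 24 h after CO2. Of the 27 genes 6 rose and 1 fell, at a background of 28.3%, 14.8% (560 genes) higher and 13.6% (515 genes) lower. The median log2 fold change was 0.08 for the splicing genes and 0.07 for all tested genes. Groups did not overlap for 3 splicing genes, 1 higher and 2 lower, where 16% of all tested genes did not overlap, 4.77% higher and 11.2% lower. In 4 of the 6 that rose the product was an Sm protein.

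Sm B had 294, 132, 286, 159 and 166 CPM in founders after CO2, against 87.2, 92.7, 92.1, 115 and 116 CPM in CO2-treated queens. All founders were above all CO2-treated queens. The log2 fold change was 1.04 ± 0.24 (edgeR adjusted p = 0.0038), and it was called with each of the 25 libraries left out in turn, with the genetic line as a block (edgeR adjusted p = 0.012) and with the length trend removed (edgeR adjusted p = 0.00224). Sm E had 228, 40.2, 135, 57.0 and 60.0 CPM in founders after CO2, against 37.96, 27.2, 35.9, 52.3 and 55.3 CPM in CO2-treated queens. Founders 1 and 3 stood far above the rest, and the others lay within or just above the range of the CO2-treated queens. The log2 fold change was 1.31 ± 0.41 (edgeR adjusted p = 0.0231, and 0.0451 with the line as a block). It lost its call when CO2-treated replicate 1, 2 or 3, or founder replicate 1 or 3, was left out, with a change as small as 0.80 (edgeR adjusted p of up to 0.145).

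Sm G had 136, 40.9, 46.8, 36.4 and 44.5 CPM in founders after CO2, against 25.1, 24.7, 17.2, 29.0 and 43.7 CPM in CO2-treated queens. Sm D1 had 149, 57.3, 119, 66.2 and 47.1 CPM in founders after CO2, against 44.9, 45.3, 40.6, 47.9 and 56.8 CPM in CO2-treated queens. Both were highest in founder replicate 1, and the groups overlapped. The log2 fold changes were 1.10 ± 0.38 and 0.89 ± 0.32 (edgeR adjusted p = 0.0367 and 0.0419, or 0.0561 and 0.0622 with the line as a block, which called 19.8% of all tested genes). Both lost their calls when any of these was left out, CO2-treated replicate 1, 2, 3 or 4, diapause replicate 5, founder after CO2 replicate 1 or 3 or mated replicate 4, and Sm D1 also without founder after diapause replicate 3. The edgeR adjusted p reached 0.252 and 0.181, and the change of Sm G was as small as 0.57.

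Both tRNA endonuclease subunits rose in this comparison too. Sen2 had 2021, 473, 1047, 376 and 439.5 CPM in founders after CO2, against 340.1, 319.6, 323, 503 and 494 CPM in CO2-treated queens. Sen34 had 546, 121, 369, 121 and 130.2 CPM in founders after CO2, against 109.8, 104, 93.7, 148 and 139 CPM in CO2-treated queens. Founders 1 and 3 were again the high ones, and the others overlapped with the CO2-treated queens. The log2 fold changes were 1.14 ± 0.42 and 1.11 ± 0.41 (edgeR adjusted p = 0.0465 and 0.0468, or 0.0818 and 0.082 with the line as a block). SF3B1, the single gene that fell, had 76.3, 383, 64.0, 292 and 354 CPM in founders after CO2, against 558, 623, 414, 462 and 540.2 CPM in CO2-treated queens. Every founder was lower than every CO2-treated queen, by -1.15 ± 0.43 (edgeR adjusted p = 0.0468, or 0.0658 with the line as a block). HnRNP Q did not overlap either, but its change of -1.28 ± 0.53 did not pass (edgeR adjusted p = 0.0684).

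These last 3 calls were the least firm. Sen2 and Sen34 stayed called in 8 of 25 fits that each left out 1 library, those without founder after diapause replicate 1 or 2, diapause replicate 1, founder after CO2 replicate 2, 4 or 5 or mated replicate 2 or 5. In the other 17 fits the edgeR adjusted p reached 0.311 and 0.26 and the change was as small as 0.56 and 0.64. SF3B1 stayed called in 6 fits, those of the list above other than diapause replicate 1 and mated replicate 5, with an edgeR adjusted p of up to 0.137 elsewhere. With CO2-treated replicate 3, mated replicate 2 and diapause replicate 1 all left out, 1 of the 7 genes stayed called, Sm B (edgeR adjusted p = 0.00795), where 17.7% of all tested genes were called.

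Genes of like length moved in the same direction as most of these. Up to 1605 bp, 3 of 9 splicing genes rose and none fell, where 21.9% of the other genes rose and 5.43% fell. Above 5231 bp, 1 of 7 rose and 1 fell, against 3.83% and 29.8% of the others. Once the length trend was removed 3 genes were called, Sm B, Sm E (edgeR adjusted p = 0.047) and Sen2 (edgeR adjusted p = 0.0151), where 25.1% of all tested genes were called. The split over all tested genes was then 622 higher and 329 lower.

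**Figure D4:**
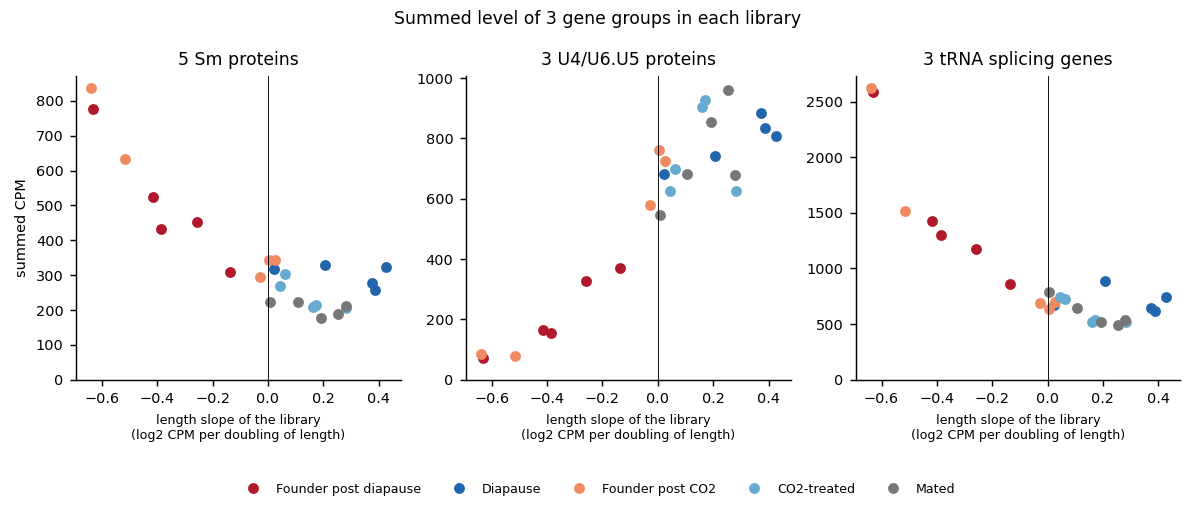
Summed CPM of the 5 Sm genes, the 3 U4/U6.U5 genes and the 3 tRNA splicing genes in each library against that library's length slope (log2 CPM per doubling of covered length). Points are libraries, coloured by group. Libraries with the most negative slopes, among them founders after CO2 replicates 1 and 3, have high Sm and tRNA sums and low U4/U6.U5 sums.

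The summed levels show how unequal the founders after CO2 were. The 5 Sm genes summed to 777, 310.2, 433, 524 and 453 CPM in founders after diapause, against 317, 279, 258, 323 and 328 CPM in diapausing queens. They summed to 838, 294, 632, 343 and 344 CPM in founders after CO2, against 216, 209, 205, 268 and 302 CPM in CO2-treated queens and 178, 212, 223, 189.5 and 223 CPM in mated queens. The 3 genes of U4/U6.U5 summed to 71.0, 369.9, 155, 163 and 326 CPM in founders after diapause, against 681, 885, 834, 808 and 743 CPM in diapausing queens. In the other route they summed to 84.9, 581, 79.5, 763 and 727 CPM in founders after CO2, against 927, 904, 626, 625 and 697 CPM in CO2-treated queens. Founders after CO2 replicates 1 and 3 were at or beyond the levels of the founders after diapause for the Sm genes and among the lowest of them for U4/U6.U5, and replicates 2, 4 and 5 were near or within the range of the CO2-treated queens for U4/U6.U5. Those are also the replicates that differ in length slope. They differed too in the median log2 ratio of 3 prime to 5 prime counts over genes. This ratio was 0.10 and 0.06 in founders after CO2 replicates 1 and 3, and -0.16 to -0.11 in the others. It was 0.15 in founder after diapause replicate 1 and -0.16 to -0.02 in the others. Diapausing queens had 0.07 to 0.11 and CO2-treated queens -0.12 to -0.005. The part of that slope and of this ratio in these sums was not tested.

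Whether the step to founder differed by route was tested as the change from diapausing queens to founders after diapause less the change from CO2-treated queens to founders after CO2. Of the 27 genes 1 was called, RtcB, at a background of 2.43%, 0.0791% (3 genes) higher and 2.35% (89 genes) lower. DESeq2 split all tested genes into 65 higher and 419 lower. RtcB had 54.6, 96.3, 98.6, 139 and 129.9 CPM in founders after CO2, against 83.5, 92.7, 103, 96.7 and 91.6 CPM in CO2-treated queens, so that its levels in the CO2 route overlapped while those of the diapause route, given above, did not. In the diapause route the gap was narrow, with diapause replicate 1 just above the highest founder. The difference of the log2 fold changes was -2.38 ± 0.46 (edgeR adjusted p = 0.011), and 2.5% of the 200 genes of like length were below it. It stayed called without any single library (edgeR adjusted p of up to 0.0439) but not with the genetic line as a block (edgeR adjusted p = 0.0583), where 0.0791% of all tested genes were called. RBM22 with -1.70 ± 0.47 and Sm D3 with -1.41 ± 0.40 lay just past the threshold (edgeR adjusted p = 0.052 and 0.0526). The median over the splicing genes was -0.79 and over all tested genes -0.11. This difference shares its groups with both comparisons above and is no separate evidence of them.

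The founders of both routes, set against each other, gave no called splicing gene, and 0% of all tested genes were called. At an unadjusted p under 0.05 there were 4 splicing genes and 273 genes in all, and DESeq2 called 5 genes, none of them a splicing gene. The lowest p was that of SF3A1, with 26.8, 70.5, 79.0, 56.1 and 68.8 CPM in founders after diapause, against 42.3, 110.2, 83.1, 192 and 149 CPM in founders after CO2. The ranges overlapped. Its log2 fold change was -0.94 ± 0.31 (edgeR adjusted p = 0.616). The median log2 fold change of the splicing genes was -0.51, beside -0.11 for all tested genes.

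Queens in diapause differed from the young queens in few splicing genes. Against mated queens, 2 of 27 rose and none fell, at a background of 5.69%, 3.66% higher and 2.03% lower. Against CO2-treated queens, 3 rose and none fell, at a background of 6.43%, 5.64% higher and 0.791% lower. RtcB had 108, 390.4, 378, 502 and 437 CPM in diapausing queens, against 83.5, 92.7, 103, 96.7 and 91.6 CPM in CO2-treated queens and 107, 121, 114, 124 and 102 CPM in mated queens. Sm D3 had 27.4, 44.8, 49.2, 85.3 and 50.0 CPM in diapausing queens, against 20.4, 19.5, 18.7, 24.3 and 30.1 CPM in CO2-treated queens and 17.9, 19.1, 20.5, 18.9 and 20.8 CPM in mated queens. For both genes diapause replicate 1 was near the young queens and the other diapausing queens were above all of them. RtcB exceeded mated queens by 1.68 ± 0.33 and CO2-treated queens by 1.96 ± 0.33 on the log2 scale (edgeR adjusted p = 0.00328 and 0.00175), where genes of like length had medians of -0.17 and -0.22. Sm D3 exceeded mated queens by 1.40 ± 0.29 and CO2-treated queens by 1.17 ± 0.29 (edgeR adjusted p = 0.00618 and 0.0196), where genes of like length had medians of -0.25 and -0.26.

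RBM22 was the third gene called against CO2-treated queens. It had 66.4, 199, 158, 233 and 198 CPM in diapausing queens, against 90.4, 72.8, 73.4, 79.1 and 72.9 CPM in CO2-treated queens and 75.1, 69.2, 94.9, 95.6 and 64.9 CPM in mated queens. Diapause replicate 1 was below all CO2-treated queens and the other diapausing queens were above all of them. The log2 fold change was 1.13 ± 0.33 against CO2-treated queens (edgeR adjusted p = 0.0436) and 1.09 ± 0.33 against mated queens, which did not pass (edgeR adjusted p = 0.0521). The other 24 tested genes were called against neither. The most negative log2 fold change was that of p14, -0.82 ± 0.36 against mated queens, which did not pass (edgeR adjusted p = 0.171), and its level in diapause replicate 1, given above, was higher than in any mated or CO2-treated queen.

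Several of these calls depended on the fit. With the genetic line as a block, RtcB and Sm D3 stayed called against mated queens (edgeR adjusted p = 0.0494 and 0.0476) among 1.34% of all tested genes, a fit in which the mated queen of the line that no other group has drops out. Against CO2-treated queens RtcB stayed called (edgeR adjusted p = 0.009), while Sm D3 and RBM22 did not (edgeR adjusted p = 0.0517 and 0.0797), at a background of 3.43%. Against CO2-treated queens, Sm D3 lost its call when CO2-treated replicate 1, 2 or 4, or diapause replicate 4, was left out (edgeR adjusted p of up to 0.0859). RBM22 stayed called in 10 of 25 fits that left out 1 library, those without founder after diapause replicate 1, 2, 3 or 4, diapause replicate 1, founder after CO2 replicate 1, 3 or 4 or mated replicate 2 or 5, and its edgeR adjusted p reached 0.153 in the others. Without diapause replicate 1, 4 splicing genes were called against mated queens, where 24.1% of all tested genes were. Without it and the 2 shallow libraries, 8 were called against mated queens, 6 higher and 2 lower, at a background of 31.5%, 13.6% higher and 17.9% lower, and 8 against CO2-treated queens at a background of 36.5%.

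RtcB and Sm D3 were the splicing genes called higher in diapausing queens than in each of the other 4 groups, founders after CO2 included. They are 2 of 27, at a background of 3.11% of all tested genes, 2.87% higher and 0.237% lower than in every other group. The diapausing queens are the same libraries in all of these comparisons and in that with the founders after diapause.

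**Figure D5:**
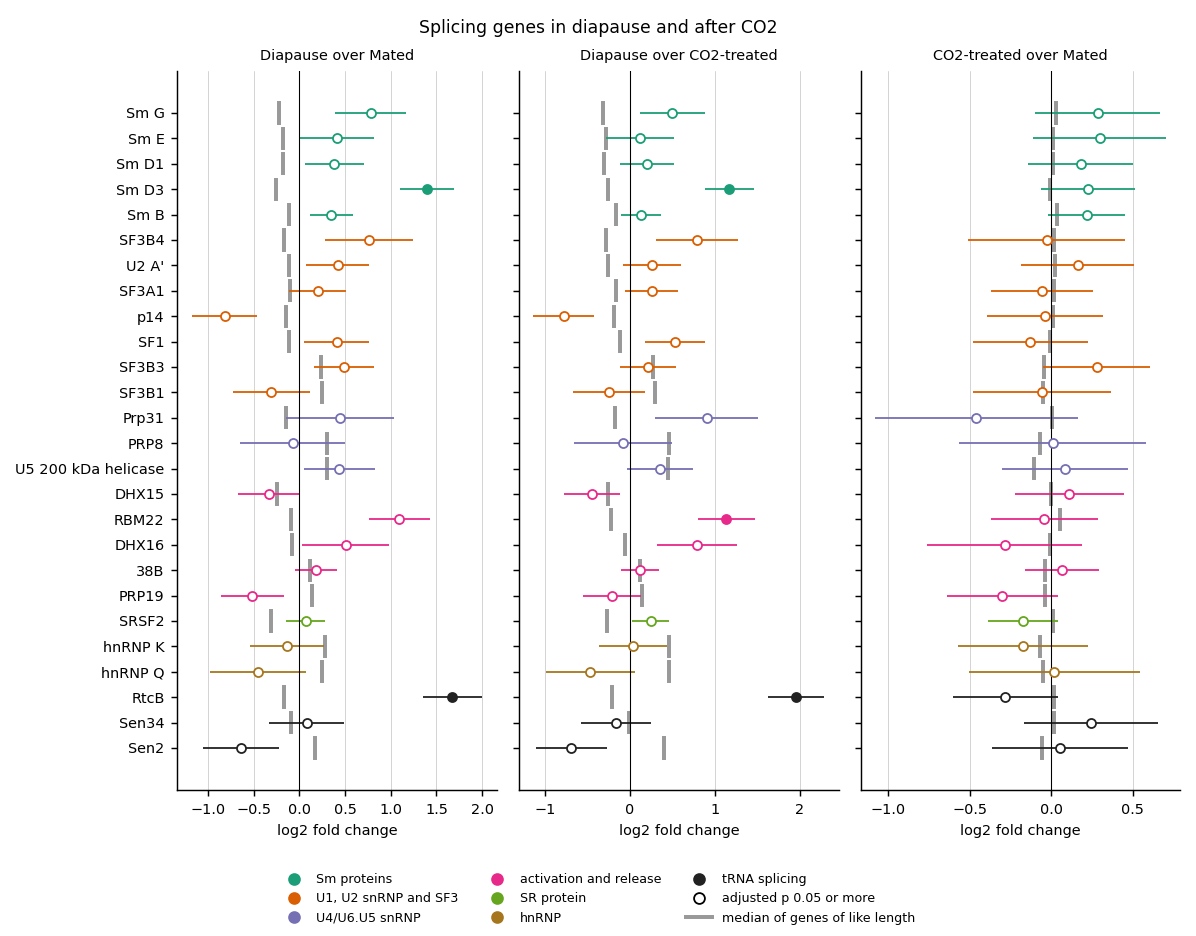
Log2 fold change with its SE for 26 of the 27 tested splicing genes in diapausing over mated queens, diapausing over CO2-treated queens and CO2-treated over mated queens. Filled points passed an edgeR adjusted p of 0.05. They are RtcB and Sm D3 in the first panel, these and RBM22 in the second, and none in the third.

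In queens 24 h after CO2, no splicing gene was called against mated queens, at a background of 0.395%, 15 genes, all lower. None had an unadjusted p under 0.05, and DESeq2 called none. The median log2 fold change was 0.02, and for no splicing gene were the groups apart, where 0.975% of all tested genes were, 0.316% higher and 0.659% lower. RtcB, for example, had 93.5 ± 7.197 CPM in CO2-treated queens and 114 ± 9.204 CPM in mated queens (SD, n = 5 each).

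The share of intervals that had the sign of their gene differed by comparison. A gene with a small change can have intervals of either sign, so this share does not measure how evenly intervals moved. The intervals of hnRNP K ran only from -0.25 to 0.03 in diapausing over mated queens, where the gene changed by -0.14. Of these, 8 of 10 had the sign of the gene. Sm E, Sm D3, Prp31, PRP19, Sen2 and Sen34 had 1 interval each and could not be examined this way. In founders after diapause over diapausing queens, all 150 intervals with at least 50 reads, in 21 splicing genes, had the sign of their gene. In founders after CO2 over CO2-treated queens it was 139 of 150, and in diapausing over mated queens 129 of 150. All intervals of a gene had its sign for 21, 16 and 11 of the 21 genes, in that order. Those of DHX16 ran from -3.02 to 0.37 in founders after CO2, where 5 of 8 had the sign of the gene. The same shares over other genes are not given here. The 28 such intervals of PRP8 ranged from -2.27 to -1.26 on the log2 scale in the first comparison, and the 8 of RtcB from -2.37 to -1.76. A test of unequal use of a gene's intervals (edgeR's diffSpliceDGE, gene-level F test) called none of the 21 splicing genes it could test in any of the 3 comparisons. It called 8.24% of all genes with at least 2 tested intervals in founders after diapause over diapausing queens, 3.69% in founders after CO2 over CO2-treated queens and 0.804% in diapausing over mated queens. At an unadjusted p under 0.05 there was no splicing gene in the first of these and 1 in each of the others, DHX16 (edgeR adjusted p = 0.259 in founders after CO2). The Simes version of that test also called none. The intervals do not mark splice junctions, so intron removal itself was not measured.

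Of 29 further genes of RNA processing that share the path of a transcript with the spliceosome, 11 rose and 12 fell in founders after diapause over diapausing queens, and 4 rose and 2 fell in founders after CO2 over CO2-treated queens. These are 23 and 6 of 29, at backgrounds of 80.9% and 28.3% of all tested genes, so that called genes were no more frequent in the lists than among all genes, and the counts of the single lists below stand against the same shares. In the fit as reported, none was called in diapausing over mated or CO2-treated queens, in CO2-treated over mated queens, between the founders or by route. With the length trend removed some were called, in both directions, in diapausing over mated queens, where 9.6% of all tested genes were. Among them were 2 genes described below, SRPK1 and UPF1, both higher (edgeR adjusted p = 0.0465 and 0.0249). UPF1 was then also called over CO2-treated queens (edgeR adjusted p = 0.0281). SRPK1 (LOC100646783), a kinase that phosphorylates SR proteins, had 122 ± 51.5 CPM in founders after diapause and 331 ± 113 CPM in diapausing queens (SD, n = 5 each), a change of -1.44 ± 0.33 (edgeR adjusted p = 0.000655). THO2 (LOC100648885) of the mRNA export complex had 55.3 ± 34.7 CPM in founders after diapause and 462 ± 170.2 CPM in diapausing queens (SD, n = 5 each), a change of -3.06 ± 0.57 (edgeR adjusted p = 9.39e-05). With the length trend removed SRPK1 changed by -0.58 and THO2 by -2.50 (edgeR adjusted p = 0.0253 and 0.000146). THO2 was the only 1 of 4 export genes that fell, and 1 rose. THO6 (LOC100642481) of the same complex changed by 0.45 ± 0.30, which did not pass (edgeR adjusted p = 0.158).

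Among 6 genes of the SMN complex, which loads Sm rings, and of integrator, which trims the U RNAs, 2 rose and 3 fell in founders after diapause. Integrator 3 (LOC100649879) changed by -2.54 ± 0.57 and integrator 1 (LOC100646479) by -1.49 ± 0.28 (edgeR adjusted p = 0.000476 and 9.70e-05). Integrator 1 is long, with 9127 bp covered, and with the length trend removed its change was 0.40 and not called (edgeR adjusted p = 0.187). Of 4 cleavage and polyadenylation genes 2 rose and 2 fell, with symplekin (LOC100644858), a scaffold of the cleavage complex, at 1.18 ± 0.33 and a speckle poly(A) polymerase (LOC100649683) at 1.94 ± 0.42 (edgeR adjusted p = 0.00289 and 0.000402). Of 7 genes of nonsense-mediated decay and the exosome 5 rose and 2 fell. The exosome subunit RRP43 (LOC100643876) had 1.34 ± 0.36 and the decay helicase UPF1 (LOC100644215) -2.72 ± 0.53 (edgeR adjusted p = 0.00209 and 0.000144). With the length trend removed these were smaller, at 0.53 and -0.98 (edgeR adjusted p = 0.0484 and 0.00484). In that setting integrator 3 changed by -2.16, symplekin by 3.03 and the polymerase by 1.95 (edgeR adjusted p = 0.000856, 0.00037 and 0.00035).

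Of 3 exon junction complex genes, mago nashi (LOC100645404) rose by 0.76 ± 0.35 (edgeR adjusted p = 0.0472, or 0.0665 with the line as a block), was called in 13 of 25 fits that left out 1 library, and changed by -0.01 with the length trend removed (edgeR adjusted p = 0.975). The initiation factor 4A-III gene (LOC100643803) of that complex had 16.8 to 160.2 CPM in founders after diapause, against 4.66 to 14.2 CPM in diapausing queens. It did not pass (edgeR adjusted p = 0.0668), but did with the line as a block (edgeR adjusted p = 0.048). Its levels ran from 3.81 to 1090 CPM in mated queens (SD 484) and from 4.22 to 1157 CPM in CO2-treated queens (SD 514). Those groups enter the same fit and its estimate of the spread. Of 4 regulators of alternative splicing 3 fell. Muscleblind (LOC100651166) had 33.6 ± 23.2 CPM in founders after diapause and 212 ± 101 CPM in diapausing queens, and 54.0 ± 38.7 CPM in founders after CO2 against 204 ± 70.6 CPM in CO2-treated queens (SD, n = 5 each). Its changes were -2.65 ± 0.54 and -1.91 ± 0.53 (edgeR adjusted p = 0.000229 and 0.013). The polypyrimidine tract-binding protein PTBP2 (LOC100650792) changed by -2.06 ± 0.54 and -1.39 ± 0.52 (edgeR adjusted p = 0.00163 and 0.0487). In founders after CO2 its call was lost with the line as a block (edgeR adjusted p = 0.0535), held in 6 of 25 fits that left out 1 library, and was lost with the length trend removed, where the change was -0.12 (edgeR adjusted p = 0.736). Both regulators are long, with 16581 and 16949 bp covered. With the length trend removed neither was called in founders after diapause (edgeR adjusted p = 0.656 and 0.0601), and the change of PTBP2 was then 0.53.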

How the data were processed

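PolyA RNA of 25 single queens had been sequenced. Per the submitters' processing notes, the tools were Trimmomatic, TopHat and DESeq. What the authors deposited are raw, unscaled counts of reads in exon-sized intervals. The gene models they deposited are version 1.3 by their name, and for the genome build, the counter and strandedness nothing is given in the sources used here. The table covers part of the transcriptome, so its totals, 534806 to 4057781 per library, are not sequencing depths, and CPM are relative to them. Counts were summed per gene, 3861 in all, of which a RefSeq table of assembly iyBomTerr1.2, used for names, matched 3534, 26 of the 28 splicing genes included. No interval of a splicing gene overlapped one of another gene. Reads shared between near-identical copies were not analysed here.

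Genes with at least 10 reads in enough libraries and 15 in all (edgeR's filterByExpr) were tested, 3793 in number, in one fit of all 25 libraries with group as the only term (edgeR 4.0.16 quasi-likelihood, TMM, two-sided, R 4.3.3, limma 3.58.1). P-values were adjusted by Benjamini-Hochberg over all tested genes and called under 0.05. The common biological coefficient of variation was 51.4%, with 20 residual degrees of freedom. The labels name individual bees, so replicates are queens. Where 1 queen of each group shares a genetic line, a fit with the line as a block was run (15 residual degrees of freedom). The pairing comes from the labels. Over 46 same-line pairs, the correlation of deviations from the group means ran from -0.74 to 0.68 and was over 0.1 in 21. DESeq2 1.42.0, its size factors, library totals, other filters and leaving out each library were the alternatives, and removal of each library's length trend was added after the data were seen. Tables and figures were made with pandas 2.3.3, numpy 2.4.6 and matplotlib 3.10.9 (Python 3.11.15), and the fits were tested on simulated data.

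The splicing genes, lists and tests were chosen with earlier results of these data known. Genes named with values were those with the 6 smallest p over the groups, the 8 smallest among the called in each comparison, the 4 highest levels, the 4 narrowest ranges and the first of each role. Other splicing genes with values were added to account for the set. A single splicing gene enters the counts but is not reported by itself here. The 2 named genes of each processing list were those with the smallest p over the groups. Roles were assigned by patterns in the names and corrected by hand where a pattern misread one. This moved 38B to activation, p14 to the U1 and U2 group and PRP8 to U4/U6.U5. It also dropped homothorax, an inhibitor of chymotrypsin, an unconventional myosin and 3 syntaxins from other lists, and moved the vitellogenin receptor to the ovary markers.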

Additional observations from a re-analysis of the deposited data

Results flagged for a closer look

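In 16 of the 135 sets of 5 queens examined, 1 queen lay farther from the other 4 than Dixon's test allows at 95%. Chance alone flags about 5% of such sets, 6.75 here. Of the 16, 5 were in mated replicate 2 and 4 in CO2-treated replicate 3, the 2 shallow libraries, and 3 in diapause replicate 1.

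Mated replicate 2 had 142.8 CPM of DHX16 (LOC100643340), where the other mated queens had 28.8 to 39.0. It had 545 CPM of SF3B3 (LOC100645726) beside 226 to 275, and 278 CPM of 38B (LOC100649285) beside 151 to 182. Prp31 (LOC100649720) was at 42.7 CPM beside 5.77 to 13.5, and Sm D1 (LOC100643716) at 55.95 CPM beside 34.9 to 40.4. CO2-treated replicate 3 had 101.5 CPM of DHX16 beside 27.7 to 38.3 in the other CO2-treated queens. It had 295 CPM of 38B beside 167 to 193, 265 CPM of SF1 (LOC100647113) beside 173 to 193, and 40.6 CPM of Prp31 beside 3.22 to 8.78. DHX16, 38B and Prp31 were thus flagged in both libraries.

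Diapause replicate 1 had 94.7 CPM of p14 (LOC100644298) beside 24.2 to 36.4 in the other diapausing queens. It was the lowest for SRSF2 (LOC100644191), at 69.6 CPM beside 91.0 to 98.8, and for 38B, at 181 CPM beside 221 to 233. Single flags fell on 4 other libraries. Founder after CO2 replicate 1 had 136 CPM of Sm G (LOC100643544) beside 36.4 to 46.8, and replicate 5 had 12.1 CPM of Prp31 beside 3.10 to 5.63. Founder after diapause replicate 1 had 707 CPM of Sen34 (LOC100645709) beside 167 to 320. CO2-treated replicate 4 had 452 CPM of hnRNP Q (LOC100649993) beside 641 to 690.

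RtcB (LOC100647213) differed between the routes to founder, with a difference of log2 fold changes of -2.38 ± 0.46 (edgeR adjusted p = 0.011). All 5 founders after diapause were below all 5 diapausing queens, and the CO2 groups overlapped. Diapause replicate 1 was only just above the highest of these founders after diapause.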

How the results depend on the processing

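All counts are of the 27 tested splicing genes called by edgeR at an adjusted p under 0.05, unless another tool is named. With the genetic line as a block, calls went to 1 in diapausing over CO2-treated queens (3 as reported), 2 in founders after CO2 over CO2-treated queens (7), 0 for the route difference (1) and 1 for genes apart in diapause (2). The shares of all tested genes in that fit were 3.43%, 19.8% and 0.0791% in that order. No share is given for genes apart in diapause. The block ended calls in founders after diapause for Sm D1 only. With the length trend removed there were 4 in diapausing over mated queens (2), 17 in founders after diapause (26), 3 in founders after CO2 and 4 for the route. The shares of all tested genes in that setting were 9.6%, 68.5%, 25.1% and 5.17%. That setting also reversed Sm D1 in founders after diapause, to -0.20 (adjusted p = 0.48), and the U5 200 kDa helicase in diapausing queens over founders after CO2, to -0.030 (adjusted p = 0.914). Scaling by library totals alone gave 1 in diapausing over CO2-treated queens, 1 in founders after CO2 and 1 apart in diapause, and moved the median of all genes by up to 0.21, from 0.28 to 0.07 in founders after diapause. With library totals the share of all tested genes was 1.32% in diapausing over CO2-treated queens and 15.2% in founders after CO2, and none is given for genes apart in diapause. No filter gave 4 in founders after CO2, at a background of 24%. For the route, DESeq2 gave 5, its size factors 2, a minimum of 50 reads 2 and the main scaffold alone 2. These stand beside 12.8%, 3.51%, 2.12% and 2.51% of all tested genes, in that order.

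Without the 2 shallow libraries there were 1 in founders after CO2 and 4 for the route, where 15.8% and 6.49% of all tested genes were called. Without these libraries and diapause replicate 1 there were 8 in diapausing over mated queens, 8 over CO2-treated queens, 1 in founders after CO2, 9 for the route and 6 apart in diapause. The shares of all tested genes were 31.5%, 36.5%, 17.7% and 36.6% for the first 4 of these, and no share is given for the last. Leaving out 1 library at a time gave 2 to 4 in diapausing over mated queens, 1 to 4 over CO2-treated queens, 24 to 26 in founders after diapause, 1 to 10 in founders after CO2, 1 to 8 for the route, 19 to 26 over all groups, 1 to 4 apart in diapause, 0 between founders and in CO2-treated over mated queens, and 0 to 1 with unequal interval use in founders after CO2 (1 without mated replicate 2).

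Leaving out 1 library also moved the calls over all tested genes, from 91 to 916 in diapausing over mated queens. They ran from 64 to 1091 in diapausing over CO2-treated queens, 491 to 1342 in founders after CO2 and 9 to 1005 for the route. In founders after diapause they ran from 2769 to 3160. No such range is given over all groups or for genes apart in diapause, so those counts of splicing genes have no background here. Counts of splicing genes moved by over 1.5 times without these libraries. In diapausing over mated queens it was 4 without diapause replicate 1. Over CO2-treated queens it was 1 without diapause replicate 4 or CO2-treated replicate 1, 2 or 4. In founders after CO2 it was 1 without CO2-treated replicate 1, 2 or 3, or founder replicate 1 or 3, 2 without CO2-treated replicate 4, diapause replicate 5 or mated replicate 4, 3 without founder after diapause replicate 3, and 4 without CO2-treated replicate 5, diapause replicate 2, 3 or 4, founder after diapause replicate 4 or 5 or mated replicate 1 or 3. For the route it was 3 without CO2-treated replicate 3, 6 without diapause replicate 1, 8 and 7 without founder after CO2 replicate 1 and 3, and 2 without founder after diapause replicate 2 or 3. Apart in diapause it was 4 without diapause replicate 1, and 1 without diapause replicate 4 or CO2-treated replicate 1, 2 or 4.

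Of 910 single-gene values in founders after diapause under these settings, 884 kept direction and call, 25 lost the call and 1 reversed. In founders after CO2, 138 of 245 kept it and 107 lost it. Where a cause is not in the setting itself, the cause was not tested. Of the splicing genes tested, Prp31 had the fewest reads (720 over all libraries), at 2.55 to 5.64 CPM in founders after diapause.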
